A study of Rattus norvegicus with 15 samples.

Results

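K149R MYC and K323R MYC were compared in Rat1a cells, an established rat fibroblast line, by sequencing polyadenylated RNA. The 6 libraries compared are those titled as mutant R149 (3 replicates) and mutant R323 (3 replicates), out of 15 libraries in the series. The R149 line stably expresses mouse MYC with the K149R substitution, in which arginine replaces a lysine, and the R323 line mouse MYC with K323R. The other 9 libraries come from lines with an empty vector (EV), wild-type mouse MYC (WT) or MYC with K158R (R158), with 3 replicates each. All lines were grown attached, in the same high-glucose medium with serum, and the endogenous rat Myc gene remains in all of them. The labels name 1 stable line for each construct, so a difference between R149 and R323 may belong to the line or to the substitution, which cannot be told apart. The labels call the replicates biological and do not say whether they were separate cultures grown on separate days. The p-values are thus set against the spread between such replicates and no wider one. Unless stated otherwise, that spread was estimated from all 15 libraries. The labels also describe the cells as normal primary fibroblasts, although Rat1a is an immortal line.

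The transcription factor MYC binds DNA together with its partner MAX and is known for raising genes of ribosome production, metabolism and the cell cycle. Acetyltransferases such as p300, GCN5 and TIP60 attach acetyl groups to several of its lysines. Arginine keeps the positive charge of lysine but cannot be acetylated. The lysine replaced in K149R lies in the N-terminal part of the protein, and that replaced in K323R lies ahead of the C-terminal region that binds MAX and DNA. Rat1a cells have long been used to test whether MYC makes fibroblasts grow in the manner of tumour cells. The comparison of R149 with R323 asked which RNAs differed between 2 lines that both carry a MYC with a single lost acetylation site.

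The R149 libraries held 37, 43.4 and 109 megacounts in genes, and the R323 libraries 18.3, 33.5 and 20.3 megacounts. Of 32545 rat Ensembl gene identifiers, 13676 passed a filter on low counts and were tested. The files give identifiers only, and 0 of them could be paired with a gene symbol, so the level of Myc, the markers of fibroblasts and the pathways of the genes were not examined. No sequence of a gene is shown for the same reason. R149 replicate 1 stood apart. After thinning every library to 13303631 counts 13689 genes had a count in it, against 14868 to 15645 in the other 14 libraries. Its log2 level per gene differed from those of R149 replicates 2 and 3 by a root mean square of 0.811 and 0.81, and from that of R323 replicate 1 by 0.789. R149 replicates 2 and 3 differed from each other by 0.212, and from the R323 library of equal number by 0.383 and 0.43. R323 replicate 1 was likewise further from R323 replicates 2 and 3 (0.546 and 0.559) than these were from each other (0.272). The step from replicate 1 to the other replicates was thus larger than the step between the lines within replicates 2 and 3. What sets the replicate 1 libraries apart was not tested.

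Of the genes that passed the test between R149 and R323, most were lower in R149. Of 13676 genes tested, 147 (1.07%) passed an adjusted p of 0.05 in edgeR's quasi-likelihood test with Benjamini-Hochberg adjustment. In R149, 25 genes (0.183%) were higher and 122 (0.892%) lower than in R323, so that 83% of the called genes were lower. A fit that adds the replicate number as a block gave 302 genes, 68 higher and 234 lower. The same block in the 6 libraries alone gave 593 genes, 271 higher and 322 lower, so that the excess of lower genes was small there. At least 2-fold differences were called for 61 genes (0.446%), 14 higher and 47 lower. At least 4-fold differences were called for 11 and 17 genes, and at least 8-fold differences for 7 and 9. Among the 25 higher genes the log2 fold change had a median of 1.19, and among the 122 lower genes -0.92. Over all genes tested the median was -0.01, with quartiles at -0.178 and 0.15. At an unadjusted p below 0.05 the balance was nearly even, with 763 genes higher and 797 lower. The 25 higher genes had a median level of 24.7 CPM (a gene's counts divided by the scaled library total) in R149 and 6.07 CPM in R323. The 122 lower genes had a median of 13.9 CPM in R149 and 27.4 CPM in R323.

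**Figure D1:**
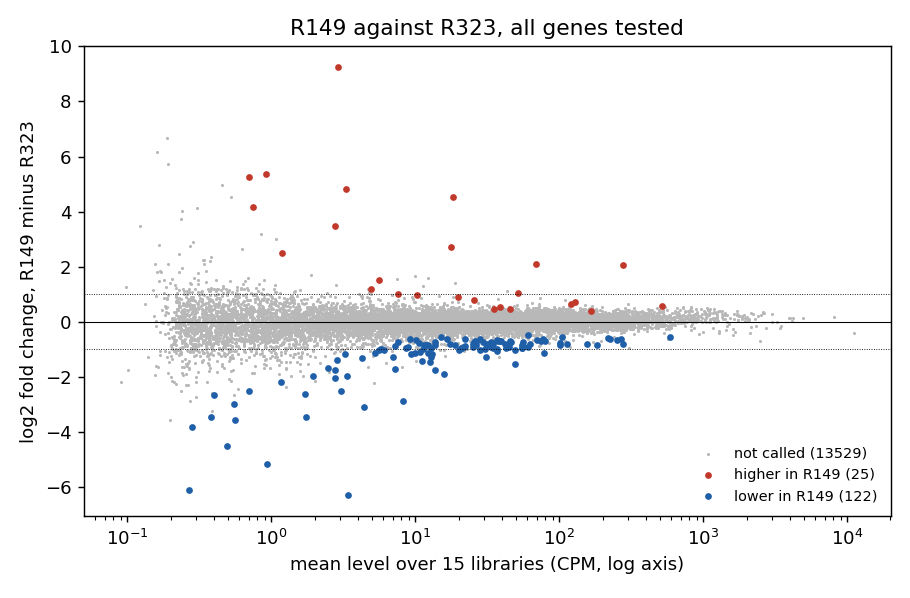
Each point is 1 of the 13676 genes tested, with its mean level over the 15 libraries on a log axis (CPM) and its log2 fold change of R149 against R323. The 25 genes called higher in R149 are red, the 122 called lower are blue, the dotted lines mark 2-fold, and called genes lie in all 4 quartiles of the level.

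The genes that differed came from every level of abundance, but the largest differences were mostly those of rare RNAs. In the quartile of genes with the lowest levels (median 1.06 CPM), 7 (0.205%) were higher in R149 and 23 (0.673%) lower. In this quartile lay all 9 genes called at least 8-fold lower and most of the 7 called at least 8-fold higher. In the next quartiles, with medians of 12.3, 39.7 and 126 CPM, 7, 5 and 6 genes (0.205%, 0.146% and 0.175%) were higher. In turn, 41, 41 and 17 genes (1.2%, 1.2% and 0.497%) were lower. For most genes the data limit the size of any difference. The 95% interval of the log2 fold change lay within 2-fold in both directions for 10872 genes, or 79.5%. This share was 31.7% in the quartile with the lowest levels and 98.4% in the highest. A further 348 genes had a fitted difference of at least 2-fold without passing the test. Their median level was 0.475 CPM, 258 of them lay under 1 CPM, and their median standard error was 0.67 on the log2 scale. At that median standard error a fitted 2-fold difference would not pass the test, but the size detectable was not computed for each gene.

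Since the genes were called on these 6 libraries, their order across libraries was largely fixed by the choice and is given as a description. All 25 higher genes had their 3 R149 libraries above their 3 R323 libraries, and 121 of the 122 lower genes had them below, where 1.07% of all genes passed the test. Among all genes tested, libraries of the 2 lines did not overlap for 2775 (20.3%), 1359 with R149 higher and 1416 with R149 lower. Between libraries of equal number, the median difference of the lower genes was -0.9, -0.86 and -0.97 log2 units for replicates 1, 2 and 3. For the higher genes it was 1.19, 1.26 and 1.28. The lowest R149 library of a lower gene was replicate 1 for 64 genes, replicate 2 for 18 and replicate 3 for 40. The highest R149 library of a higher gene was replicate 1 for 11 genes, replicate 2 for 5 and replicate 3 for 9. Gene by gene, R149 replicate 1 was thus most often the extreme library for the lower genes, but for only 11 of the 25 higher genes. The same split over all genes tested was not counted. By the median level of the higher genes, R149 replicate 1 was instead the lowest of its line, at 4.33 log2 CPM against 4.65 and 4.86.

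**Figure D2:**
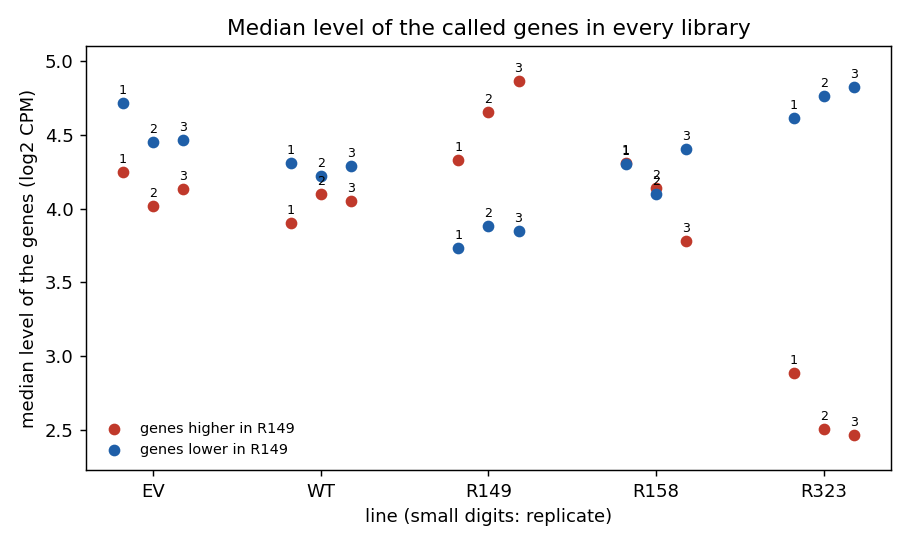
Each point is the median level (log2 CPM) of the 25 genes higher in R149 (red) or the 122 genes lower in R149 (blue) in 1 library, by line, with the replicate number above it. Lower genes lie between 3.73 and 3.88 in R149 and between 4.61 and 4.82 in R323, and higher genes between 4.33 and 4.86 in R149 and between 2.47 and 2.89 in R323.

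The number of called genes depended on how replicates were treated. Deviations from the line means correlated between libraries of equal number at 0.369, 0.307 and 0.269 for replicates 1, 2 and 3. Replicates 2 and 3 also correlated across numbers, R149 replicate 2 with R323 replicate 3 at 0.323 and R149 replicate 3 with R323 replicate 2 at 0.181. Pairs of a replicate 1 with another number lay between -0.398 and -0.264. With the replicate number as a block, edgeR called 302 genes, 68 higher and 234 lower in R149, among them all 147 genes called without it. With replicates 2 and 3 of every line only, 547 genes were called, 136 higher and 411 lower, among them 146 of the 147. Leaving out R149 replicate 1 gave 122 genes, 25 higher and 97 lower, of which 102 were among the 147. Without R323 replicate 1 there were 134 genes, 19 higher and 115 lower, of which 107 were among the 147. Leaving out R149 replicate 2 or 3 gave 71 and 55 genes, and leaving out R323 replicate 2 or 3 gave 60 and 63. Differences of at least 2-fold were called for 37 genes without R149 replicate 3, R323 replicate 2 or R323 replicate 3. The 25 higher genes became 49 without R158 replicate 2, whose spread enters the fit. Of the 147 genes, 41 were called under each of the 6 fits that left out 1 library of R149 or R323, 10 of them higher and 31 lower in R149. These 41 genes had a median difference of 1.18 log2 units in size, against 0.86 for the other called genes, and 26 of them differed by at least 2-fold. At the other end, 2 of the higher and 18 of the lower genes were called in none of those 6 fits.

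**Figure D3:**
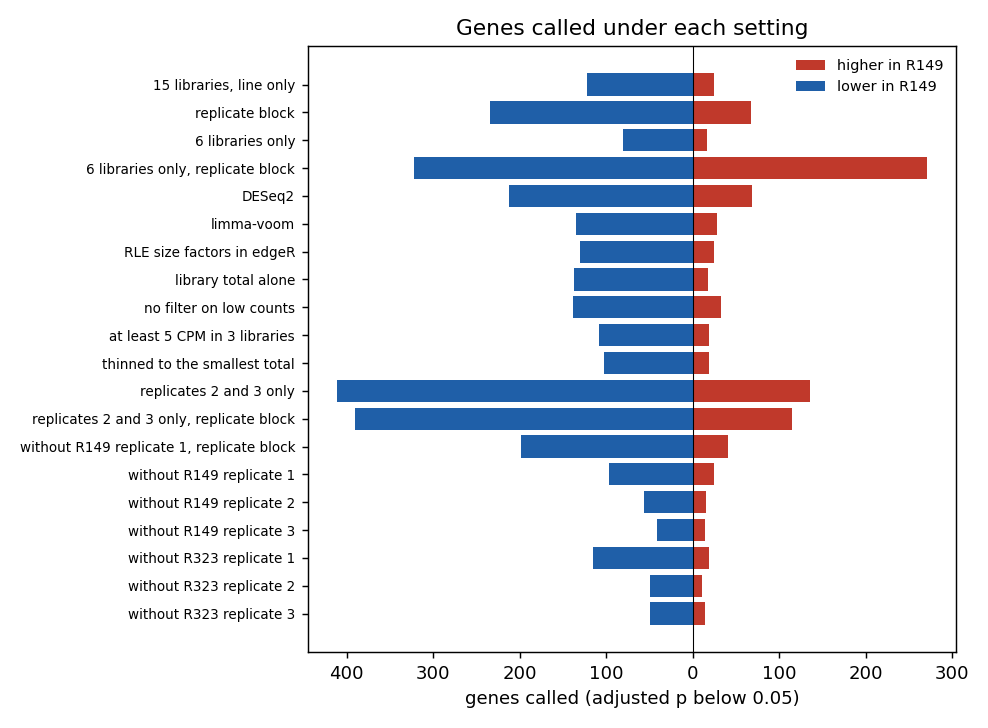
Bars give the number of genes called higher (red, to the right) and lower (blue, to the left) in R149 than in R323 under each setting, with the fit of 15 libraries by line alone at the top. More genes were lower than higher under every setting drawn, from 41 against 14 without R149 replicate 3 to 411 against 136 with replicates 2 and 3 only. The split was most even with the 6 libraries alone and the replicate block, at 322 against 271.

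The levels of the other 3 lines were set beside those of R149 and R323. The genes were chosen because R149 and R323 differ, which by itself favours other lines lying between them. Of the 122 lower genes, WT lay between the line means of R149 and R323 for 99 and R158 for 99, while EV did so for 76. Over all genes tested, WT lay between them for 41.3%, R158 for 31.9% and EV for 16.1%. WT was nearer to R149 for 62 of the 122 genes (50.8%) and R158 for 73 (59.8%), beside 43.5% and 57.5% of all genes tested. Against the mean of WT and R158, the lower genes stood at a median of -0.401 log2 units in R149 and 0.486 in R323, and for 105 of them the 2 lines lay on opposite sides, as they did for 5792 of all 13676 genes. The 25 higher genes stood at a median of 0.373 in R149 and -0.929 in R323. R323 was the line further from WT and R158 for 17 of them, for 71 of the 122 lower genes and for 7259 of all 13676 genes.

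**Figure D4:**
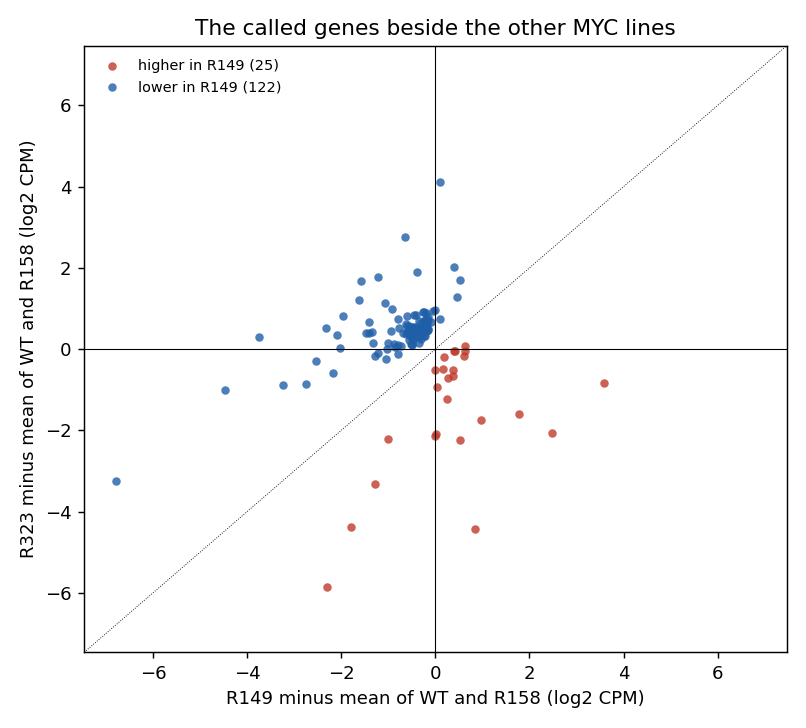
Each point is 1 called gene, placed by how far its mean log2 CPM in R149 (horizontal) and in R323 (vertical) lay from the mean of WT and R158, with the dotted line marking equal levels in R149 and R323. Of the 122 blue genes 105, and of the 25 red genes 18, lie with the 2 lines on opposite sides of WT and R158.

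The called genes fell into groups by which line stood outside all 12 libraries of the other 4 lines. In 37 of the 122 lower genes every R149 library was below those 12 libraries, and in 46 every R323 library was above them, with 5 genes in both groups. Over all genes tested, 1.25% were lowest in R149 in this way and 1.18% highest in R323. The 32 genes that were lowest in R149 alone had the larger differences, with a median log2 fold change of -1.12 and 19 genes of at least 2-fold. Their median level was 5.1 CPM in R149, against 12.3 in WT, 11 in R158, 12.2 in R323 and 15.5 in EV. The 41 genes that were highest in R323 alone had a median log2 fold change of -0.84, and 9 reached 2-fold. Their median level was 48.5 CPM in R323, against 26.1 in R149, 30.6 in R158, 32.9 in WT and 27.5 in EV. Of the 32 genes 13, and of the 41 genes 10, were called in each of the 6 fits without 1 library of R149 or R323. In none of these fits were 2 of the 32 and 9 of the 41 called.

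Among the 25 higher genes, 11 were lowest in R323 and 8 were highest in R149 by the same rule, with 0.731% and 0.746% of all genes tested. The 11 genes lowest in R323 had a median log2 fold change of 1.52, and 8 of them differed by at least 2-fold. The 8 genes highest in R149 had a median of 0.63, and 2 reached 2-fold. Among genes of at least 2-fold that stood apart in 1 line alone, more were low in that line than high. The counts were 19 against 9 among the lower genes and 8 against 2 among the higher. In 44 lower and 6 higher genes neither line stood apart, and 16 and 4 of these reached 2-fold. Of the 5 lower genes with both lines apart, 3 reached 2-fold. The same counts at 2-fold over all genes tested were not made. In WT, the genes low in 1 line alone had median levels of 12.3 CPM (lower genes) and 10.1 CPM (higher genes). Those high in 1 line alone had 32.9 and 43.4 CPM. The median standard error was 0.424 in the quartile of genes with the lowest levels and 0.129 in the highest. Whether the split of these counts follows the level was not tested. These groups were made from the same libraries as the comparison and are a description.

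The largest difference was that of ENSRNOG00000018992, which was not found in R323. It had 94, 90 and 230 counts in the R149 libraries, or 2.66, 2.07 and 2.15 CPM, and 0 counts in all 3 R323 libraries. No library of the 2 lines overlapped, which the rule for named genes required of each of them. With 3 counts over the R323 libraries as the limit that a count of 0 allows, R149 was at least 54.4-fold higher. The edgeR adjusted p was 4.74e-05. The gene stood at 0.843 ± 0.387 CPM in WT, 2.01 ± 0.55 in R158 and 9.3 ± 0.988 in EV (SD, n = 3). It was the only gene with 0 counts in all R323 libraries and at least 1 CPM in every R149 library, and the reverse was found for 0 genes.

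ENSRNOG00000026918 was the second largest rise in R149 by the rule for named genes. It stood at 5.2, 1.59 and 1.58 CPM in the R149 libraries and at 0, 0.0583 and 0.142 CPM in the R323 libraries. R149 replicate 1 was the highest library, and the other 2 R149 libraries were also above all R323 libraries. The log2 fold change was 5.26 ± 0.76 (SE), and the edgeR adjusted p was 0.0028. The log2 fold change was 4.44 without R149 replicate 1 and 6.07 without R323 replicate 3. In sum, the R323 libraries held 5 counts. The pooled ratio of 33.2 had a 95% interval of 14.1 to 103 for counting error alone. WT held an intermediate 0.562 ± 0.239 CPM, and R158 and EV only 0.0118 ± 0.0204 and 0.0503 ± 0.054 CPM (SD, n = 3).

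ENSRNOG00000022806 was lower in R149, at 0, 0.046 and 0.0468 CPM against 0.958, 1.63 and 1.71 CPM in R323. All R149 libraries lay below all R323 libraries, which the rule for named genes required. The log2 fold change was -5.17 ± 0.58 (SE) with an edgeR adjusted p of 0.000233, on 7 counts in R149 and 109 in R323. Its level was 0.665 ± 0.215 CPM in WT, 2.02 ± 0.773 in R158 and 0.547 ± 0.236 in EV (SD, n = 3), so that R149 was the lowest of the 5 lines. R149 was also called lower than WT and than EV, with edgeR adjusted p of 0.00237 and 0.000321.

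ENSRNOG00000052444 was also lower in R149, and its call depended on single libraries. It stood at 0, 0.0919 and 0.0936 CPM in R149 and at 4.17, 0.525 and 0.616 CPM in R323. R323 replicate 1 was far above the other 2 R323 libraries, which were still above all R149 libraries. The log2 fold change was -4.53 ± 0.93 (SE) with an edgeR adjusted p of 0.0249, and without R323 replicate 1 it was -2.96, where the adjusted p was 0.127. Without R149 replicates 1, 2 and 3 in turn the edgeR adjusted p was 0.0577, 0.0975 and 0.128. The test was passed in 19 of 26 alternative fits, with adjusted p between 0.000243 and 0.145. R158 held 0.0429 ± 0.0377 CPM, near R149, while WT and EV held 0.276 ± 0.154 and 0.293 ± 0.283 CPM (SD, n = 3).

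**Figure D5:**
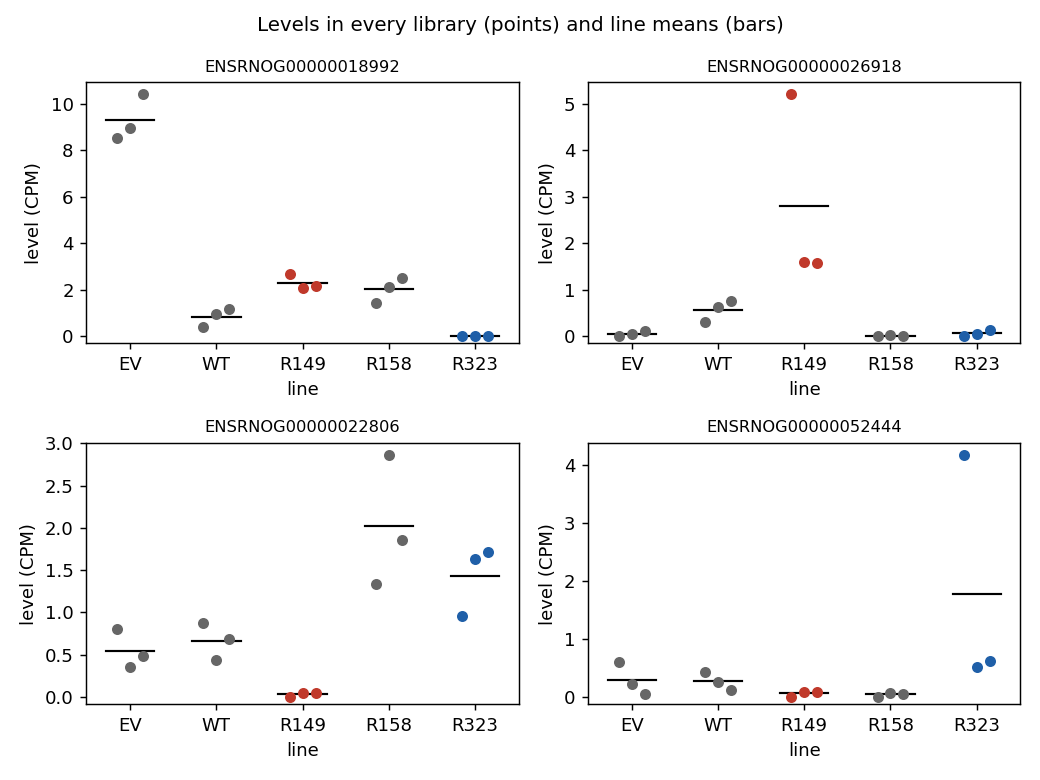
Levels (CPM, linear axes that differ between panels) of the 4 named genes in every library, with R149 in red, R323 in blue, the other lines in grey and a bar for the line mean. R149 and R323 do not overlap in any panel, which the rule for named genes required. In the last panel R323 replicate 1, at 4.17 CPM, lies far above the other 2 R323 libraries.

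These 4 genes are rare RNAs, and the abundant genes with at least 2-fold difference were chosen after their values were seen. The most abundant of the 14 higher genes stood at 357, 329 and 333 CPM in the R149 libraries and at 55.5, 99 and 89.9 CPM in the R323 libraries. Its log2 fold change was 2.06 ± 0.16 (SE), with an edgeR adjusted p of 8.98e-06. It was low in R323 alone, since WT held 327 ± 16.1, R158 343 ± 35.1 and EV 301 ± 10.2 CPM (SD, n = 3). The higher gene with the smallest p behaved alike, at 83.1 ± 2.8 CPM in R149 and 19.2 ± 4.29 in R323, with 81.3 ± 4.12 in WT, 85.3 ± 9.05 in R158 and 76.5 ± 2.76 in EV. Its log2 fold change was 2.11 ± 0.14, with an edgeR adjusted p of 1.5e-06. The most abundant of the 47 lower genes stood at 57.6, 64.5 and 53.6 CPM in R149 and at 116, 140 and 131 CPM in R323. Its log2 fold change was -1.14 ± 0.19, with an edgeR adjusted p of 0.00771. Here R323 was the line that stood apart, since WT held 75.8 ± 16.5, R158 65.1 ± 16.8 and EV 63.7 ± 11 CPM.

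Libraries of WT, EV and R158 entered the contrast of R149 with R323 only through the filter, the scaling and the shared estimate of the spread. In WT against EV, 54 of the 147 genes (36.7%) were called, 22 higher and 32 lower, where 26.8% of all genes were called, 12.6% higher and 14.1% lower. For the 25 genes higher in R149 this number was 13, 7 higher and 6 lower in WT, and for the 122 lower genes it was 41, 15 higher and 26 lower. In R158 against WT, 10 of the 147 genes (6.8%) were called, where 0.6% of all genes were called. These 10 genes made up 12.2% of the genes called between R158 and WT. Genes with a small spread are easier to call in every contrast of this fit, and the share of this in both counts was not tested.

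Each line was also set beside EV and WT, which share the R149 or R323 libraries with the contrast, so these values are given side by side only. The 122 genes lower in R149 had a median log2 fold change against EV of -0.47 in R149 and 0.44 in R323. Of these genes, 64 were called lower and 4 higher than EV in R149, where 20.2% of all genes were called lower and 18.2% higher. In R323, 15 were called lower and 59 higher than EV, where 15.7% of all genes were called lower and 14.1% higher. Against WT their medians were -0.43 in R149 and 0.46 in R323, with 31 genes called lower and 0 higher in R149, where 0.994% of all genes were called lower and 0.19% higher. In R323, 1 was called lower and 18 higher than WT, where 0.563% of all genes were called lower and 0.329% higher. The 25 genes higher in R149 had medians against EV of 0.13 in R149 and -0.85 in R323. In R149, 9 of them were called higher and 8 lower than EV, and in R323 1 was called higher and 16 lower. Against WT, 4 were called higher and 4 lower in R149, and 0 higher and 13 lower in R323.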

How the data were processed

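The deposited values were raw counts per Ensembl gene with no normalization, 1 table per library, from stranded mRNA libraries per the labels' protocols. Per the submitters' processing notes, TopHat2 2.1.0 and the build Rnor_6.0 were used. Which counter, strand setting and annotation release were used is not given in the sources used here, so overlapping genes and near-identical copies are uncertain. The RefSeq table of rat genes (GRCr8) held 0 of the identifiers, so 35 gene lists could not be run.

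Low genes were removed with filterByExpr (minimum 10 counts), libraries were scaled by TMM, and all 15 libraries entered 1 edgeR 4.0.16 quasi-likelihood fit in R 4.3.3 with the line as the only term. Genes were called at a Benjamini-Hochberg adjusted p below 0.05. Standard errors were derived from the F statistic. Log2 CPM used a prior count of 2. Totals ranged from 13303631 to 108933235 counts. Alternatives used limma 3.58.1, DESeq2 1.42.0, other scalings, filters, thinning, the replicate block and left-out libraries.

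Named genes were the 2 largest folds in each direction among genes called, at or above 1 CPM in the higher line and with no overlap of libraries. A symbol, which the rule first asked for, was not required. The comparison, lists and rules were chosen with earlier results of these data known. The labels do not say that replicate numbers mark a shared day, but all 3 equal-numbered pairs of R149 and R323 correlated above 0.1 (0.269 to 0.369), so the block is printed beside the counts. R149 replicate 2 correlated with R323 replicate 3 at 0.323, above its own number at 0.307. The deviations of a line cancel over its 3 replicates, so the 3 correlations are not independent of each other. A step of replicate 1 in both lines would by itself raise those among replicates 2 and 3. They thus do not show that replicates 2 and 3 are paired by number. No replicates agreed within counting noise (chi-square per degree of freedom 4.24 to 81.8).

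The procedure was tested on simulated counts for R149 against R323 with 13548 genes tested. The simulated libraries were drawn separately, with no step between replicates, so the shares may not hold for the real libraries. Of 67 genes changed 1.5-fold 20.9% were recovered, of 67 changed 2-fold 77.6% and of 66 changed 4-fold 86.4%, with 10 false calls among 133, above the nominal share.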

Additional observations from a re-analysis of the deposited data

How the results depend on the processing

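Across 28 alternatives, the count of 147 genes stayed within 1.5 times in 18, that of 25 higher genes in 17, that of 122 lower genes in 17 and that of 61 genes with at least 2-fold difference in 20. The alternatives with the replicate number as a block were the pairing check. With the replicate block, 302 genes were called, 68 higher and 234 lower in R149. With the 6 libraries of the 2 lines alone and the replicate block, 593 were called, 271 higher and 322 lower, and without the block those 6 libraries gave 81 lower genes and 35 genes of at least 2-fold. DESeq2 called 281 genes, 69 higher and 212 lower. A minimum of 5 CPM in 3 libraries left 40 genes of at least 2-fold. Replicates 2 and 3 alone gave 547 genes, 136 higher, 411 lower and 192 of at least 2-fold. Chosen after the data were seen, replicates 2 and 3 with the replicate block gave 506, 115, 391 and 173, and leaving out R149 replicate 1 with the replicate block gave 240, 41, 199 and 105. Leaving out single libraries gave 55 to 184 genes called, 11 to 49 higher, 41 to 152 lower and 37 to 77 of at least 2-fold. The cause of these shifts was not tested. Scaling by library total moved the median of all genes by -0.048 (log2) and gave 18 higher and 137 lower genes. All named genes kept their direction where tested, and ENSRNOG00000018992, ENSRNOG00000026918 and ENSRNOG00000022806 passed the test in all 28, 27 and 27 alternatives that tested them. ENSRNOG00000052444 lost its call in 7 of 26, with an adjusted p of 0.145 with the 6 libraries alone and 0.0618 with the block added to them.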

Other observations

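The most abundant gene with a 2-fold higher level in R149 and the higher gene with the smallest p kept a nearly constant proportion in all 15 libraries. The ratio of their CPM was lowest at 3.89, had a median of 4.02 and was highest at 4.45, while both were lower in R323 than in all 12 libraries of the other 4 lines. The pair was noticed after the values were seen, and whether the genes overlap or share reads could not be examined without gene positions.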
